A study of Homo sapiens with 8 samples.

Results

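SUDHL6 is an established cell line from diffuse large B cell lymphoma, a cancer of B lymphocytes. The comparison described here set 2 RNA sequencing libraries of SUDHL6 cells kept for 96 hours (day 4) with iEZH, a compound that the title of the study presents as a small molecule inhibitor of PRC2, against 2 libraries of SUDHL6 cells kept as long with the solvent DMSO. It took in 4 of the 8 libraries of the study, and the dose of iEZH is not given in the sources used here. The culture medium was the same for both groups (RPMI GlutaMAX with serum and antibiotics), and no separate culture, passage or day was named for a replicate, so the p-values measure only the spread between these 4 samples, which may be technical. Genes were chosen by length alone. Of the 13036 genes in the deposited table, the 12706 whose annotated span is 300 bp or more were kept and the 330 shorter ones, small RNA genes for the most part, were set aside. The shortest genes kept were SCARNA10 and SCARNA7 at 330 bp, and the longest left out were SCARNA5 at 278 bp and SCARNA13 at 275 bp.

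PRC2 is the complex in which EZH2, or its relative EZH1, methylates lysine 27 of histone H3 on a scaffold of EED and SUZ12. The mark keeps genes silent, developmental regulators above all. In the germinal centre, where B cells mutate and select their antibody genes, EZH2 is abundant and the proteins of replication and mitosis are made at a high rate, and lymphomas of this origin keep much of that programme.

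The libraries held 59563321 to 94821806 reads. Expression was deposited as FPKM, a fragment count scaled to transcript length and library size. In each library 61 to 106 of the long genes sat at a shared low value of 0.0712 FPKM, called the floor here. Some values lay under it, such as BHLHA15 at 0.0547 FPKM in DMSO replicate 1. The short genes held 21.0% to 44.4% of the summed FPKM. Across genes, log2(FPKM + 1) correlated at 0.974 to 0.990 between libraries, and the highest value between an iEZH and a DMSO library (0.988) was above the lowest within a group (0.986). The line's identity as a B cell was carried by 14 of 15 B cell markers, whose summed level was 5062 and 5976 FPKM in the iEZH libraries and 4908 and 5011 FPKM in the DMSO libraries. Markers of other cells were few, with 3 of 23 T and NK cell genes in the table, 2 of 22 myeloid genes and 1 of 20 epithelial and stromal genes. The T and NK genes summed to 31.1 and 25.8 FPKM with iEZH and 46.6 and 39.2 FPKM with DMSO, nearly all of it LCK, a kinase that some B cell lymphomas also make, and none of the CD3 genes was in the table.

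A gene was tested where at least 1 FPKM was reached in at least 2 of the 4 libraries, which left 11006 genes and took out 1700, of which 1438 were under 1 FPKM everywhere. In limma on log2(FPKM + 1), with p-values adjusted by Benjamini-Hochberg over these genes, 2 genes passed an adjusted p of 0.05, SH3BP5 and ECI2, both higher with iEZH, a share of 0.0182%. None passed in the other direction. Before adjustment, 2164 genes were under a p of 0.05, 1432 higher and 732 lower with iEZH. At an adjusted p of 0.1, a threshold added after seeing the data, 385 genes (3.5%) were higher and 125 (1.14%) lower. The pair of calls was lost without the filter and with eBayes without a trend, which each called 0 genes. With a replicate block, 3780 genes were called, 2389 higher and 1391 lower with iEZH. The labels give the replicate number no meaning, so the block is described only among the alternatives below. Leaving out a library raised the number called to 467 (without iEZH replicate 1), 224 (without iEZH replicate 2), 295 (without DMSO replicate 1) and 200 (without DMSO replicate 2). In each of these fits 1 group is a lone library that is assumed to vary like the other group, so they add little about the pair. When the short genes were fitted together with the long ones, 30 of 11173 genes passed, 17 higher (0.152%) and 13 lower (0.116%), of which 7 long genes were higher and 0 lower. In the authors' deposited table, whose p-values come from a Tukey test, 48 of the long genes had an FDR under 0.05, 31 with the higher mean in iEZH and 17 with the lower.

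Because so few genes passed, the gene groups below are described by how many members had both iEZH libraries on the same side of both DMSO libraries. Over all genes tested, 3183 had both iEZH libraries above both DMSO libraries, which is 28.9%, and 2282 had both below, which is 20.7%. These shares depended on the scaling, being 24.6% above and 24.9% below after median-ratio rescaling and 23.0% above and 26.1% below after quantile normalization. With a log2 change of at least 1 added, 98 genes (0.89%) were above and 18 (0.164%) below. The median log2 change over all genes tested was 0.04. With 2 libraries against 2, an exact permutation test of a single gene cannot give a two-sided p under 0.333.

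**Figure D1:**
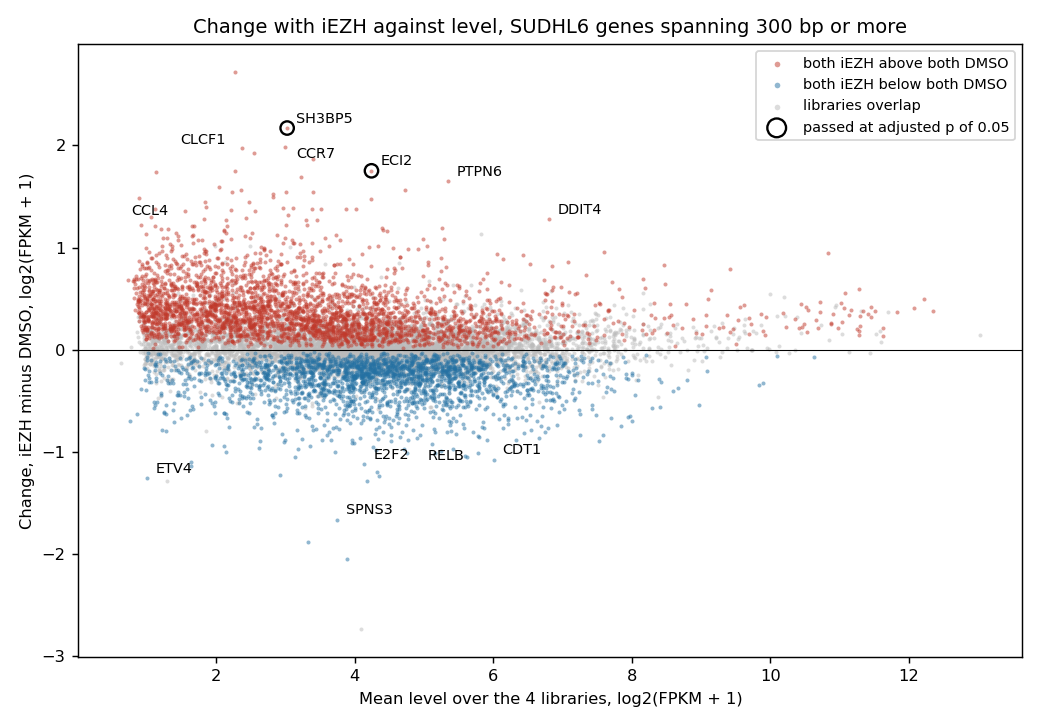
Change of each of 11006 genes (iEZH minus DMSO, on the log2(FPKM + 1) scale) against its mean level over the 4 SUDHL6 libraries. Red points have both iEZH libraries above both DMSO libraries (3183 genes), blue points both below (2282 genes), grey points overlap, and the circles mark SH3BP5 and ECI2, which passed the test.

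SH3BP5, on chromosome 3 from 15296356 to 15382901 (hg19), encodes an adaptor that binds and inhibits the tyrosine kinase BTK and acts as an exchange factor for the small GTPase RAB11. It had 15.1 and 17.5 FPKM in the iEZH libraries, against 2.59 and 3.09 FPKM in the DMSO libraries. Both treated libraries were far above both controls, at a mean of 16.3 ± 1.68 FPKM against 2.84 ± 0.347 FPKM (SD, 2 libraries each), a ratio of 5.73. SH3BP5 thus rose by 2.17 on the log2(FPKM + 1) scale (SE 0.13, limma adjusted p = 0.0464). In the authors' deposited table its FDR was 0.283.

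ECI2, on chromosome 6 from 4115926 to 4135831, encodes an isomerase that moves double bonds so that unsaturated fatty acids can be oxidized in mitochondria and peroxisomes. It stood at 33.8 and 33.5 FPKM with iEZH and at 9.21 and 9.39 FPKM with DMSO. The replicates nearly coincided in each group, and the ratio of the means was 3.62. The log2 change was 1.75 (SE 0.11, limma adjusted p = 0.0464), and the FDR in the authors' deposited table was 2.68e-10.

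The promoters of SH3BP5 and ECI2 are shown because these genes passed the test. The dinucleotide CG is marked in them, since it is dense in CpG island promoters, where PRC2 is known to bind. The sequences are the 250 bases before the RefSeq transcription start on GRCh38.p14, at chr3:15332587-15332836 for SH3BP5 and chr6:4135576-4135825 for ECI2, both on the minus strand and written 5′ to 3′ along it, with each CG in capitals.
SH3BP5: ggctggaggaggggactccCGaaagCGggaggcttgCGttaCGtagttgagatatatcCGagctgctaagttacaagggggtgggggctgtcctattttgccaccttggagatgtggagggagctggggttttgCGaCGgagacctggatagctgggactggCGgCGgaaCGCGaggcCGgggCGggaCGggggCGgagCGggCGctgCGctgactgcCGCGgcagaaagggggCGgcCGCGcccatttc
ECI2: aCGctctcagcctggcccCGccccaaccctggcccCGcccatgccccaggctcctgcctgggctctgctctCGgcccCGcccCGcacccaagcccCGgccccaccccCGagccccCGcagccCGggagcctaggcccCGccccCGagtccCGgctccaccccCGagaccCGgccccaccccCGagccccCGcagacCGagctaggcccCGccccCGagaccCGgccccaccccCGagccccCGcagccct
Both windows held 23 CG dinucleotides. Over 35116 such windows in RefSeq the median was 11, the quartiles were 3 and 23, and 76.3% of windows held as many CG or fewer. The TATA box letters TATAAA, searched on both strands, were in neither window and in 10.7% of all windows. RefSeq lists 2 starts for ECI2, of which 1 is shown. The windows and the spans of the measured genes are on different genome builds. Whether each window lies at the start of the measured span was not checked. This is a description of the sequence only, since binding of PRC2 and its mark was not measured here.

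The 13 genes next to SH3BP5 and ECI2 by p-value on the higher side, all with both iEZH libraries above both DMSO libraries, had limma adjusted p-values from 0.0548 to 0.0643 and are given as values. BASP1P1, a pseudogene of BASP1 whose reads may come in part from its parent gene, had 16.8 and 14.8 FPKM with iEZH and 4.21 and 4.17 FPKM with DMSO. PTPN6, which encodes the phosphatase SHP-1 that damps B cell receptor signalling, had 64.4 and 77.4 FPKM with iEZH and 20.2 and 23.6 FPKM with DMSO. It was the most abundant of the 15 and the log2 change was 1.65. BHLHE40, a transcriptional repressor of the helix-loop-helix family, had 17 and 17.8 FPKM with iEZH and 5.87 and 6.30 FPKM with DMSO. ACSL1, which couples fatty acids to coenzyme A, stood at 13.5 and 12.4 FPKM with iEZH and at 4.52 and 4.18 FPKM with DMSO. SESN1, a sestrin that restrains mTORC1, had 4.52 and 5.25 FPKM with iEZH and 1.31 and 1.01 FPKM with DMSO. These log2 changes were 1.38 for BHLHE40, 1.39 for ACSL1 and 1.45 for SESN1, and the groups are apart by the choice of genes.

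HDAC9, a class IIa histone deacetylase, had 16.8 and 16.4 FPKM with iEZH and 7.63 and 7.77 FPKM with DMSO. The secreted or signalling members were CCL4, a chemokine that B cells release upon receptor signalling, at 3.66 and 3.71 FPKM with iEZH and 0.910 and 0.755 FPKM with DMSO, and IL18, a cytokine of the interleukin-1 family, at 2.16 and 2.36 FPKM with iEZH and 0.301 and 0.343 FPKM with DMSO. Both were under 1 FPKM in the DMSO libraries, so they entered the test only through the iEZH libraries, and CCL4 may share reads with its near-identical copies. SERPINB6 (a protease inhibitor, log2 change 1.37), TCEAL4 (1.4), TST (a mitochondrial sulphurtransferase, 1.27), DSTN (an actin-severing protein, 1.07) and FABP6 (a bile acid binding protein, 1.10) made up the rest.

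On the lower side the 15 genes with the smallest p and both iEZH libraries below both DMSO libraries had limma adjusted p-values from 0.0643 to 0.0765, so none is called. SPNS3, a putative lipid transporter, had 7.68 and 5.54 FPKM with iEZH and 22.5 and 23.1 FPKM with DMSO, and at -1.66 its log2 change was the most negative of the 15. E2F2, an activator of replication genes, had 11.6 and 10.3 FPKM with iEZH and 24.8 and 24.9 FPKM with DMSO. CDT1, which licenses replication origins, stood at 47.3 and 39.3 FPKM with iEZH and at 88.0 and 96.4 FPKM with DMSO. DSCC1, part of a clamp loader for sister chromatid cohesion, had 18.1 and 17.5 FPKM with iEZH and 33.3 and 32.6 FPKM with DMSO. These S phase genes were picked for a small p and for groups that are apart, so their gap against the replicate spread follows from the choice. RELB, the transcription factor of the alternative NF-kB pathway, had 37.7 and 37.5 FPKM with iEZH and 76.1 and 77.1 FPKM with DMSO, a log2 change of -1.01. PIM2, a survival kinase, had 25 and 23.3 FPKM with iEZH and 47.3 and 51.9 FPKM with DMSO. ETV4, an ETS factor induced by MAPK signalling, had 0.365 and 0.225 FPKM with iEZH and 2.06 and 2.13 FPKM with DMSO, and so was under 1 FPKM in both iEZH libraries. HRK, a BH3-only promoter of cell death, had 8.97 and 7.58 FPKM with iEZH and 16.5 and 18.5 FPKM with DMSO. KANK2, IL23A, CCDC42B, ARL6IP6, STAG3, PLCXD1 and COL9A3 had log2 changes between -1.20 and -0.89.

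**Figure D2:**
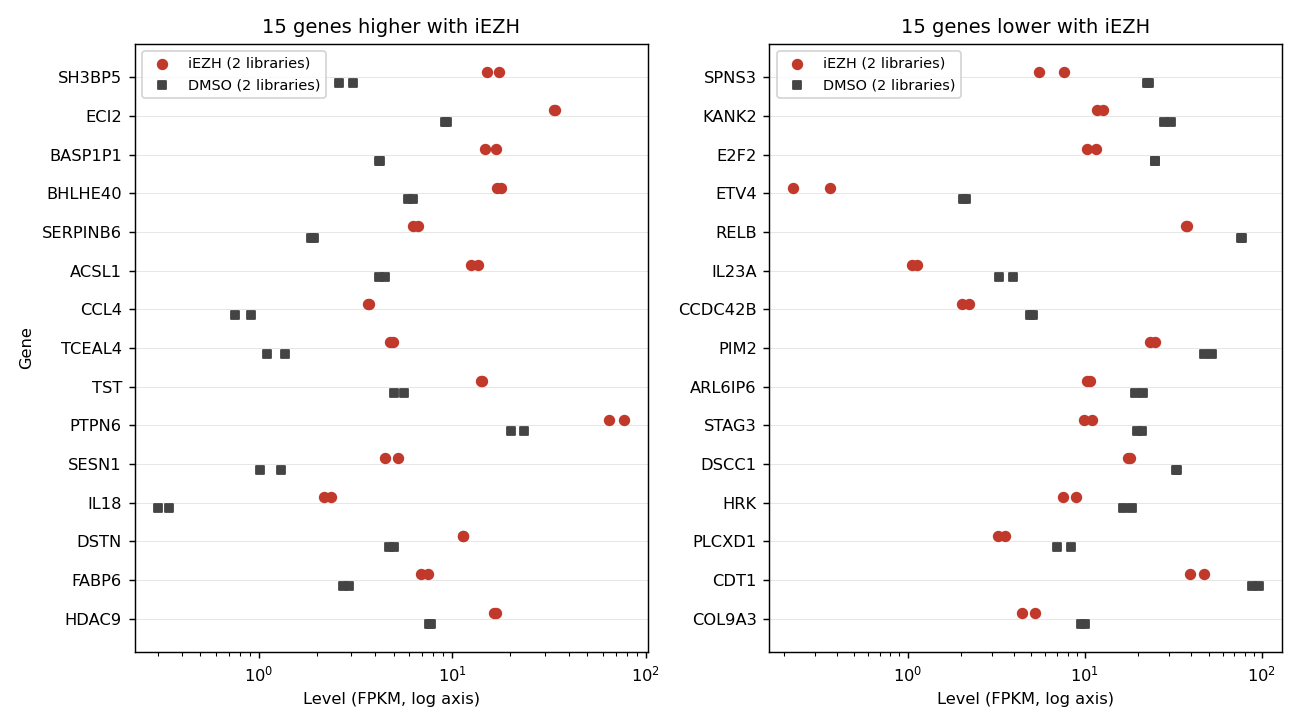
FPKM (log axis) in each library for the 15 genes named on each side, red circles for the 2 iEZH and grey squares for the 2 DMSO libraries, ordered by p-value from the top. SH3BP5 and ECI2 passed the test, the other 28 did not, and in all 30 the groups are apart because genes were picked that way.

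None of the transcripts of PRC2 itself passed the test. EZH2 had 54.9 and 47.5 FPKM with iEZH and 63.1 and 58.7 FPKM with DMSO (log2 change -0.25, limma adjusted p = 0.392), and SUZ12 had 40.6 and 38.1 FPKM with iEZH and 44.6 and 50.1 FPKM with DMSO. EED (27.5 and 27 FPKM with iEZH, 31.8 and 24 FPKM with DMSO) and EZH1 (22.9 and 27.1 FPKM with iEZH, 22.5 and 27 FPKM with DMSO) overlapped between the groups. Against 28.9% above and 20.7% below over all genes tested, the 12 PRC2 genes had 16.7% above (2 genes) and 58.3% below (7 genes). Their median log2 change of -0.23 was -0.14 without iEZH replicate 2. Those above were JARID2, an accessory subunit that helps to recruit the complex, at 11.3 and 13.5 FPKM with iEZH and 6.99 and 8.37 FPKM with DMSO, and C17orf96, which encodes the accessory protein EPOP, at 18.2 and 13.1 FPKM with iEZH and 11.1 and 7.38 FPKM with DMSO. An inhibitor that blocks the enzyme need not alter its mRNA, so EZH2 is no check of the labels here.

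PRC1 is the partner complex that binds the PRC2 mark and ubiquitinates histone H2A. With the demethylases that remove the mark it gave 17 genes. Against 28.9% above and 20.7% below over all genes tested, 7 were above (41.2%) and 4 below (23.5%). Their median log2 change of 0.15 was 0.24 without DMSO replicate 2. BMI1, a core PRC1 subunit, stood at 23.3 and 26.4 FPKM with iEZH and at 18.3 and 16.4 FPKM with DMSO, and CBX7, a reader of the mark, at 5.02 and 5.32 FPKM with iEZH and 3.51 and 3.62 FPKM with DMSO. CBX2, another reader, had 15.1 and 12.7 FPKM with iEZH and 20.5 and 19.97 FPKM with DMSO. Among 31 histone lysine and DNA methylation enzymes, 8 were above and 8 below (25.8% each), against 28.9% and 20.7% of all genes tested. DNMT3A, which sets DNA methylation anew, had 12.4 and 13.7 FPKM with iEZH and 7.52 and 8.17 FPKM with DMSO. DNMT3B, its relative, had 2.48 and 2.62 FPKM with iEZH and 4.10 and 4.93 FPKM with DMSO, and the maintenance enzyme DNMT1 had 130 and 114 FPKM with iEZH and 180 and 186 FPKM with DMSO. The groups did not overlap in any of the 3 DNA methyltransferases, with DNMT3A on the opposite side of the other two.

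Developmental transcription factors, the genes that PRC2 is best known to silence, were largely missing from the table, with 14 of 65 listed and 9 tested. Of these 9, 5 (55.6%) had both iEZH libraries above both DMSO libraries and 2 (22.2%) below. Over all genes tested the shares were 28.9% and 20.7%. The median log2 change of the 9 was 0.13, or -0.10 after quantile normalization. FOXC1, a forkhead factor, had 4.81 and 5.03 FPKM with iEZH and 3.44 and 3.23 FPKM with DMSO. MEIS2, at 15.6 and 17.4 FPKM with iEZH and 18.0 and 20.7 FPKM with DMSO, lay on the other side. Of 22 neuronal genes, 4 were in the table and 3 were tested, with SYP, a synaptic vesicle protein, at 1.80 and 1.73 FPKM with iEZH and 1.15 and 0.578 FPKM with DMSO.

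Crossings of the 1 FPKM line, below which a gene is close to silent, lay mostly on the iEZH side. Of the genes tested, 227 reached 1 FPKM in both iEZH libraries while staying under it in both DMSO libraries, and 17 did the reverse, or 203 and 22 after median-ratio rescaling. Most of these steps were small, and the filter admitted these genes through the group where they are high, so that their groups are apart by construction. When the lower group had to be under 0.5 FPKM and the higher at 1 FPKM or more in both libraries, there were 20 genes on the iEZH side and 2 on the DMSO side. Among 2462 genes with a mean under 5 FPKM, 50.6% had both iEZH libraries above both DMSO libraries and 10.5% below, with a median log2 change of 0.19, but after quantile normalization the shares were 27% above and 30.2% below. These counts include 226 genes that passed the filter only through the iEZH libraries and 17 only through the DMSO libraries. Without them, a step chosen after seeing the data, 45.9% of 2219 genes were above and 10.9% below with the deposited scaling, at a median of 0.16. In the 6740 genes between 5 and 50 FPKM 23.8% lay above and 24% below, and in the 1804 genes at 50 FPKM or more 18.6% lay above and 22.6% below. The excess of low genes above DMSO was seen with the deposited scaling and with median-ratio rescaling (46.1% above, 12.5% below) but not with quantile normalization, and its dependence on library depth was not tested.

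DNA replication and S phase genes had the largest share of members on 1 side of DMSO among the lists with at least 5 genes tested. All 38 had a lower mean with iEZH, and 35 (92.1%) had both iEZH libraries below both DMSO libraries, against 20.7% of all genes tested. The median log2 change was -0.54, with members from -1.12 (E2F2) to -0.17. This median was -0.71 without iEZH replicate 1, -0.37 without iEZH replicate 2, -0.44 without DMSO replicate 1 and -0.66 without DMSO replicate 2. Of the members, 36 were below under median-ratio rescaling and 36 under quantile normalization. Before adjustment 27 of the 38 were under a p of 0.05, but none passed after it. E2F1, the founding activator of the S phase programme, had 36.1 and 30.3 FPKM with iEZH and 79.4 and 60.9 FPKM with DMSO. CDC45, a subunit of the replicative helicase, had 17.8 and 12 FPKM with iEZH and 30.4 and 21.3 FPKM with DMSO, and CHAF1A, which loads histones onto new DNA, had 35.7 and 27.3 FPKM with iEZH and 56.4 and 49.2 FPKM with DMSO. FEN1, the flap endonuclease, was among the members whose groups overlapped, at 100 and 72.4 FPKM with iEZH and 119 and 82.1 FPKM with DMSO.

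Mitosis genes lay for the most part on the same side, with smaller differences. Of 36, 29 (80.6%) had both iEZH libraries below both DMSO libraries and 1 (2.8%) above, at a median log2 change of -0.24. Over all genes tested the shares were 20.7% below and 28.9% above. FOXM1, the transcription factor of the G2 and M phases, had 39.3 and 36.2 FPKM with iEZH and 56.8 and 55.6 FPKM with DMSO, and NUF2, a kinetochore protein, had 33.4 and 32.6 FPKM with iEZH and 46.2 and 46.9 FPKM with DMSO. Cyclin B1 (CCNB1, 90.7 and 99.3 FPKM with iEZH, 103 and 95.8 FPKM with DMSO) and TOP2A (121 and 132 FPKM with iEZH, 121 and 139 FPKM with DMSO), both made late in the cycle, overlapped between the groups. HMMR, a spindle protein, was the member above, at 27.2 and 31.2 FPKM with iEZH and 25.5 and 25.4 FPKM with DMSO. In bulk RNA, fewer cells of a kind and less RNA per cell cannot be told apart, so these values do not say whether fewer cells were in S phase.

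The inhibitors of cyclin-dependent kinases gave no gene whose groups were apart. CDKN1A, the p53 target p21, had 47.8 and 21.9 FPKM with iEZH and 24.6 and 12.5 FPKM with DMSO, so that libraries of the same treatment differed about as much as the treatments did. CDKN2A stood at 82.5 and 72.6 FPKM with iEZH and at 99.8 and 74.3 FPKM with DMSO, and CDKN2C at 59.8 and 62.8 FPKM with iEZH and 60.0 and 58.6 FPKM with DMSO. Against 28.9% above and 20.7% below over all genes tested, targets of p53 lay on both sides, 9 of 24 above (37.5%) and 7 below (29.2%). Their median log2 change of 0.16 was -0.013 with a filter at 5 FPKM, and it ran from 0.018 without DMSO replicate 2 and 0.066 without iEZH replicate 1 to 0.30 without iEZH replicate 2 and 0.33 without DMSO replicate 1. FDXR, a mitochondrial ferredoxin reductase, had 14.5 and 13.6 FPKM with iEZH and 6.93 and 5.69 FPKM with DMSO, and BTG2, an antiproliferative regulator of mRNA decay, had 447 and 494 FPKM with iEZH and 266 and 264 FPKM with DMSO. RRM2B, a p53-induced subunit of ribonucleotide reductase, had 24.2 and 27.9 FPKM with iEZH and 40.9 and 52.0 FPKM with DMSO, and DDB2, a DNA damage sensor, had 21.4 and 19.6 FPKM with iEZH and 34.1 and 32.9 FPKM with DMSO.

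Amino acid stress genes, the targets of the transcription factor ATF4, lay close to the replication genes in their median. Of 27, 22 (81.5%) had both iEZH libraries below both DMSO libraries and 1 (3.7%) above. Over all genes tested the shares were 20.7% and 28.9%. The median log2 change of the 27 was -0.54, or -0.58 and -0.65 under the other scalings. This median ran from -0.76 without iEZH replicate 1 to -0.44 without iEZH replicate 2. CTH, the last enzyme of cysteine synthesis, had 11.8 and 9.40 FPKM with iEZH and 23.3 and 31.4 FPKM with DMSO. PSAT1, an enzyme of serine synthesis, had 52.4 and 35.7 FPKM with iEZH and 76.4 and 85.4 FPKM with DMSO, ATF5 had 169 and 107 FPKM with iEZH and 250 and 249 FPKM with DMSO, and CHAC1, which degrades glutathione, had 14.9 and 7.47 FPKM with iEZH and 23.7 and 18.3 FPKM with DMSO. The gene on the other side was DDIT4, an inhibitor of mTORC1 that other stresses and glucocorticoids also induce, at 175 and 171 FPKM with iEZH and 85.2 and 58.7 FPKM with DMSO. The charging enzymes of tRNA, several of which ATF4 controls, had 12 of 19 below (63.2%) and 1 above (5.3%). Their median of -0.21 was -0.37 without iEZH replicate 1 and -0.13 without iEZH replicate 2. CARS stood at 56.5 and 48.4 FPKM with iEZH and at 77.7 and 91.9 FPKM with DMSO, and GARS at 158 and 122 FPKM with iEZH and 202 and 214 FPKM with DMSO. None of the genes in these groups passed the test.

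**Figure D3:**
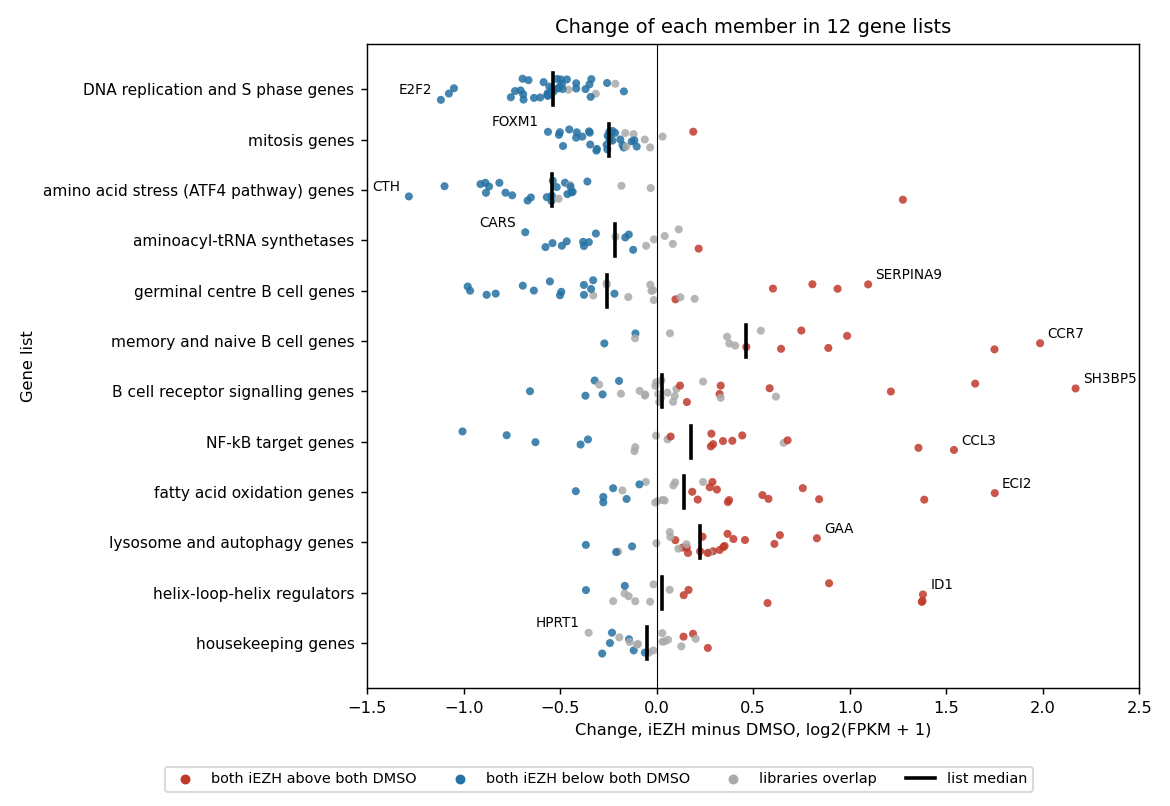
Change of each tested member (iEZH minus DMSO, log2(FPKM + 1)) in 12 gene lists, coloured by whether both iEZH libraries lay above or below both DMSO libraries, with the list median as a bar and the member with the largest change named. In the replication list 35 of 38 genes are blue, and in the ATF4 list 22 of 27.

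Genes of the germinal centre B cell leaned to the lower side with named exceptions. Of 29, 14 (48.3%) had both iEZH libraries below both DMSO libraries and 5 (17.2%) above. Over all genes tested the shares were 20.7% and 28.9%. The median log2 change of the 29 was -0.26. This median was -0.12 without iEZH replicate 1, -0.41 without iEZH replicate 2, -0.40 without DMSO replicate 1 and -0.15 without DMSO replicate 2. BCL6, the repressor that defines the germinal centre state, had 73.9 and 79.3 FPKM with iEZH and 114 and 135 FPKM with DMSO (log2 change -0.69, limma adjusted p = 0.0982). MYBL1 had 11.6 and 14.7 FPKM with iEZH and 22.3 and 32.1 FPKM with DMSO, and CXCR4, the receptor that holds cells in the dark zone, had 126 and 163 FPKM with iEZH and 222 and 295 FPKM with DMSO. S1PR2, which confines B cells to the follicle, had 34.2 and 37.7 FPKM with iEZH and 53.1 and 59.9 FPKM with DMSO. On the other side, LMO2 had 48.7 and 55 FPKM with iEZH and 29.4 and 28.9 FPKM with DMSO, and SERPINA9 had 13.7 and 19.5 FPKM with iEZH and 6.24 and 8.12 FPKM with DMSO. The germinal centre genes thus lay on both sides, and none passed the test.

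Against 28.9% above and 20.7% below over all genes tested, memory and naive B cell genes had 7 of 15 above (46.7%) and 2 below (13.3%). Their median was 0.46. It ran from 0.17 without iEZH replicate 2 and 0.28 without DMSO replicate 1 to 0.74 without iEZH replicate 1. CCR7, the receptor that guides B cells to the T cell zone, had 11.6 and 19.0 FPKM with iEZH and 2.18 and 4.05 FPKM with DMSO, a log2 change of 1.99. FCER2 (CD23), a marker of naive B cells, had 11.7 and 5.18 FPKM with iEZH and 2.03 and 1.3 FPKM with DMSO. For CCR7 and FCER2 the replicates differed widely within each group, and the limma adjusted p-values were 0.0806 and 0.0950. HHEX, a factor needed for memory B cells in mice, had 16.9 and 22.6 FPKM with iEZH and 9.11 and 11.2 FPKM with DMSO. Plasma cell genes split evenly, 3 of 14 above and 3 below (21.4% each), against 28.9% and 20.7% of all genes tested. IRF4, the plasma cell regulator, stood at 63.7 and 53 FPKM with iEZH and at 44.7 and 40.6 FPKM with DMSO, and EDEM1, which clears misfolded secretory proteins, at 73.9 and 87.6 FPKM with iEZH and 126 and 159 FPKM with DMSO. XBP1, the regulator of secretion, overlapped at 32 and 17.1 FPKM with iEZH and 33.3 and 24.9 FPKM with DMSO. The wider group of ER chaperone and secretion genes had 7 of 29 above (24.1%) and 5 below (17.2%), against 28.9% and 20.7% of all genes tested. In it the chaperone HSP90B1 had 79.7 and 65.9 FPKM with iEZH and 51.4 and 38.6 FPKM with DMSO.

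Genes of B cell receptor signalling were centred near 0, with a median log2 change of 0.02. This median was -0.02 after median-ratio rescaling and ran from -0.08 without DMSO replicate 1 to 0.17 without DMSO replicate 2. Of the 31 genes, 8 were above (25.8%) and 5 below (16.1%), against 28.9% and 20.7% of all genes tested. After SH3BP5 and PTPN6, the next largest positive log2 change was that of FCGR2B. FCGR2B, the inhibitory Fc receptor, had 2.89 and 4.87 FPKM with iEZH and 0.883 and 1.26 FPKM with DMSO. PRKCB, a kinase that transmits the signal, was next but overlapped, at 14.8 and 23.3 FPKM with iEZH and 8.99 and 15.4 FPKM with DMSO. CD72, an inhibitory co-receptor, had 117 and 168 FPKM with iEZH and 80.5 and 108 FPKM with DMSO, while CD22 and INPP5D, which also inhibit the receptor, overlapped between the groups, with log2 changes of -0.06 and 0.09. CD81, a tetraspanin of the B cell co-receptor, had 191 and 199 FPKM with iEZH and 314 and 303 FPKM with DMSO. The kinase SYK stood at 52.7 and 50.3 FPKM with iEZH and at 63.6 and 62.0 FPKM with DMSO. SH3BP5 was the only member of this group that passed the test, and it was on the list with earlier results of these data known.

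Activation and costimulation genes had 10 of 20 above (50%) and 4 below (20%), with a median of 0.29. Over all genes tested the shares were 28.9% and 20.7%. EGR2 and EGR3, transcription factors induced within hours of receptor signalling, were apart between the groups, EGR2 at 8.94 and 6.06 FPKM with iEZH and 1.77 and 3.25 FPKM with DMSO, and EGR3 at 4.17 and 3.10 FPKM with iEZH and 0.776 and 1.57 FPKM with DMSO. CD70, the ligand of CD27, had 124 and 112 FPKM with iEZH and 70.3 and 53.9 FPKM with DMSO, and CD83 had 136 and 130 FPKM with iEZH and 89.0 and 76.9 FPKM with DMSO. IL21R, the receptor of the helper T cell cytokine interleukin-21, was on the other side at 8.62 and 8.82 FPKM with iEZH and 13.9 and 14.1 FPKM with DMSO. The MAPK and calcium feedback group had 11 of 19 above (57.9%) and 5 below (26.3%), with a median of 0.18. After quantile normalization 8 were above and 6 below, and the median was 0.02. DUSP10, a phosphatase of p38 and JNK, had 2.94 and 4.85 FPKM with iEZH and 0.981 and 1.64 FPKM with DMSO, and RCAN1, a calcineurin inhibitor, had 11.2 and 12 FPKM with iEZH and 7.59 and 7.22 FPKM with DMSO. ATF3, also an ATF4 target, had 1.66 and 0.695 FPKM with iEZH and 3.38 and 3.71 FPKM with DMSO.

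Targets of NF-kB lay on both sides, 10 of 20 above (50%) and 5 below (25%), against 28.9% and 20.7% of all genes tested. The median of these targets was 0.18, or -0.057 with a filter at 5 FPKM. The chemokine CCL3 had 6.90 and 7.04 FPKM with iEZH and 1.15 and 2.5 FPKM with DMSO, beside CCL4 described before, and both belong to a cluster of near-identical copies whose reads may be shared. Opposite to them, RELB and NFKB2, the pair of subunits of the alternative pathway, were both below DMSO in both iEZH libraries, NFKB2 at 48.5 and 46.7 FPKM with iEZH and 63.9 and 58.6 FPKM with DMSO. BIRC3, a ubiquitin ligase that NF-kB induces, had 29.2 and 33.9 FPKM with iEZH and 44.6 and 54.1 FPKM with DMSO. Cytokine receptor and JAK-STAT genes had 9 of 24 above (37.5%) and 5 below (20.8%, near the share over all genes). Their median of 0.12 was -0.011 without iEZH replicate 2, -0.0066 without DMSO replicate 1 and 0.26 without DMSO replicate 2. CLCF1, a cytokine of the interleukin-6 family, had 7.56 and 11.2 FPKM with iEZH and 1.16 and 2.12 FPKM with DMSO, a log2 change of 1.98, and STAT3, which acts downstream of that family, had 18.6 and 21.4 FPKM with iEZH and 10.1 and 11.3 FPKM with DMSO. PIM1, a kinase gene that STAT proteins induce, had 185 and 167 FPKM with iEZH and 288 and 304 FPKM with DMSO, on the same side as PIM2.

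None of the antigen presentation genes passed the test. Of 8 MHC class II genes tested, 4 were above (50%) and 1 below (12.5%), or 1 and 1 after quantile normalization. CD74, the invariant chain, had 2463 and 3780 FPKM with iEZH and 1768 and 2322 FPKM with DMSO. HLA-DQA1 had 296 and 438 FPKM with iEZH and 213 and 262 FPKM with DMSO, and reads of HLA genes may be shared between related copies. RFXAP, a subunit of the activator of these genes, had 9.98 and 7.66 FPKM with iEZH and 14.0 and 12.8 FPKM with DMSO. The transactivator CIITA overlapped between the groups. Among 7 MHC class I genes, 3 were above (42.9%) and 0 below, the largest of them by 0.22 on the log2 scale (ERAP1). Interferon response genes had 5 of 19 above (26.3%) and 2 below (10.5%), against 28.9% and 20.7% of all genes tested. OAS1 (5.86 and 7.81 FPKM with iEZH, 8.44 and 14.6 FPKM with DMSO) and ISG15 (4.59 and 7.43 FPKM with iEZH, 2.49 and 3.87 FPKM with DMSO) lay on opposite sides. Adhesion and migration genes had 6 of 22 above (27.3%) and 7 below (31.8%), against 28.9% and 20.7% of all genes tested. Among them, ITGB1 had 7.34 and 7.51 FPKM with iEZH and 3.92 and 5.07 FPKM with DMSO. GNA13, which acts with S1PR2, had 88.7 and 93.2 FPKM with iEZH and 109 and 129 FPKM with DMSO.

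Fat oxidation and the lysosome held more genes above DMSO than below, as did all genes tested (28.9% above, 20.7% below). Of 28 fatty acid oxidation genes, 13 were above (46.4%) and 6 below (21.4%, near the share over all genes), with a median of 0.14. ECI2 was the member that passed the test. DECR2, a peroxisomal reductase for unsaturated fatty acids, had 9.96 and 8.62 FPKM with iEZH and 5.64 and 3.95 FPKM with DMSO, and the nuclear receptor PPARD had 16.6 and 17.8 FPKM with iEZH and 11.1 and 11.9 FPKM with DMSO. ECI1, the other mitochondrial isomerase, was on the opposite side from ECI2, at 41.9 and 36.4 FPKM with iEZH and 56.7 and 48.8 FPKM with DMSO. Lysosome and autophagy genes had 17 of 27 above (63.0%) and 3 below (11.1%), with a median of 0.22. GAA, which breaks down glycogen, had 3.08 and 3.61 FPKM with iEZH and 1.3 and 1.59 FPKM with DMSO, PSAP, the precursor of saposins, had 84.0 and 101 FPKM with iEZH and 58.0 and 59.7 FPKM with DMSO, and the protease CTSZ had 150 and 159 FPKM with iEZH and 105 and 97.4 FPKM with DMSO. Cholesterol and fatty acid synthesis had 10 of 29 above (34.5%) and 2 below (6.9%). SCD, the stearoyl desaturase, had 382 and 364 FPKM with iEZH and 283 and 259 FPKM with DMSO.

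The genes of growth and energy metabolism gave no call. Their counts stand beside shares over all genes tested of 28.9% above and 20.7% below. MYC had 177 and 165 FPKM with iEZH and 181 and 155 FPKM with DMSO, and among 33 MYC and ribosome biogenesis genes 1 was above and 1 below (3.0% each). These were its antagonists MXD4, at 19.6 and 31.9 FPKM with iEZH and 8.06 and 10.1 FPKM with DMSO, and MXD3, at 12.9 and 14.4 FPKM with iEZH and 22.1 and 20.6 FPKM with DMSO. Glucose metabolism had 3 of 27 above (11.1%) and 4 below (14.8%). TXNIP, a brake on glucose uptake, had 34.0 and 55.9 FPKM with iEZH and 22.6 and 24.6 FPKM with DMSO. Oxidative phosphorylation had 6 of 36 above (16.7%) and 2 below (5.6%), both under the shares over all genes tested. Housekeeping genes had 3 of 22 above (13.6%) and 6 below (27.3%), with a median of -0.05. Of 34 cytosolic ribosomal protein genes, 22 were above and 0 below (median 0.26), but after quantile normalization 4 were above and 4 below. Pseudogene copies of ribosomal protein genes may also share their reads.

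**Figure D4:**
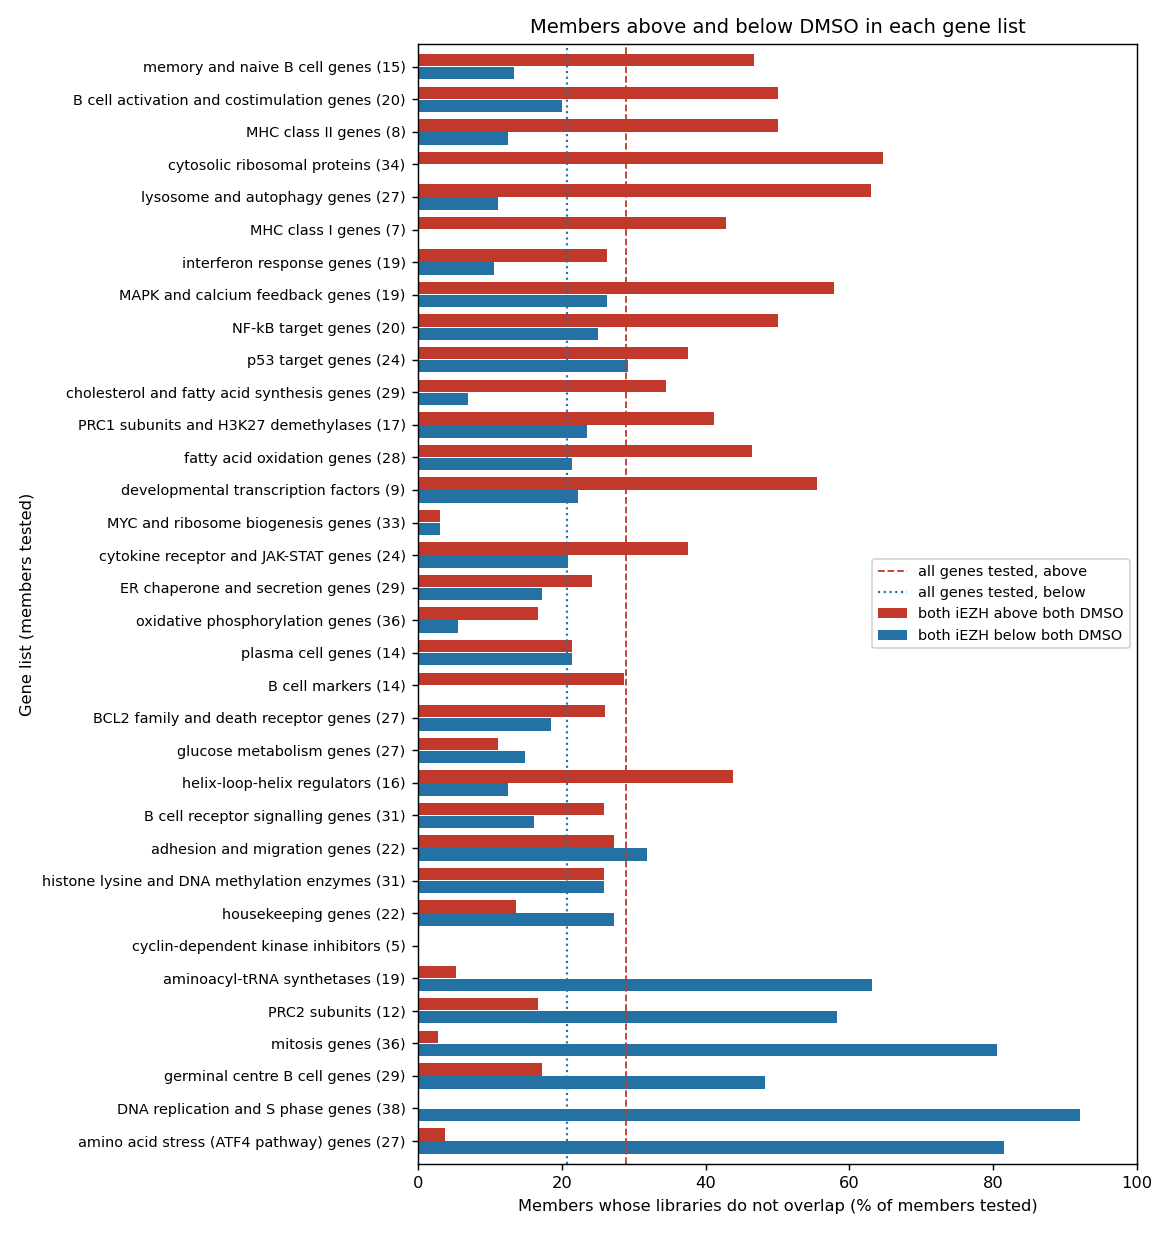
Share of tested members (%) with both iEZH libraries above (red bars) or below (blue bars) both DMSO libraries in the gene lists with at least 5 genes tested, ordered by median log2 change from the highest at the top. Lines give the shares over all genes tested, 28.9% above (dashed) and 20.7% below (dotted), and the replication, ATF4 and mitosis lists have the longest blue bars, while the long red bar of the ribosomal proteins (22 of 34) shrinks to 4 of 34 after quantile normalization.

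Cell death genes of the BCL2 and death receptor families had 7 of 27 above (25.9%) and 5 below (18.5%). These shares were close to those over all genes tested (28.9% and 20.7%). BMF, a BH3-only protein, had 159 and 200 FPKM with iEZH and 112 and 131 FPKM with DMSO. Besides HRK, PMAIP1 (NOXA), another BH3-only gene, was on the other side at 40.6 and 30.9 FPKM with iEZH and 53.5 and 51.6 FPKM with DMSO. The survival gene BCL2L1 had 28.1 and 23.6 FPKM with iEZH and 45.1 and 29.8 FPKM with DMSO.

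Inhibitors of DNA binding, which block E proteins and so B cell transcription, were among the larger differences in the helix-loop-helix group. ID1 had 14.8 and 17 FPKM with iEZH and 6.10 and 4.90 FPKM with DMSO, ID2 had 20.1 and 25.4 FPKM with iEZH and 7.35 and 8.95 FPKM with DMSO, and ID3 had 89.3 and 101 FPKM with iEZH and 54.9 and 46.6 FPKM with DMSO. In all 3 the groups were apart, with log2 changes of 1.38, 1.37 and 0.89. TCF3, which encodes the E proteins E12 and E47, had 167 and 182 FPKM with iEZH and 216 and 234 FPKM with DMSO. The whole group of 16 had 7 above (43.8%) and 2 below (12.5%), against 28.9% and 20.7% of all genes tested. The group median of 0.03 was -0.01 and -0.08 under the other scalings.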

How the data were processed

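RNA of SUDHL6 cells was sequenced from 2 iEZH and 2 DMSO libraries. The authors aligned reads to hg19 with TopHat 1.4.1 and quantified them with Cufflinks, per the submitters' processing notes, and deposited FPKM values per gene, restricted to detectable genes per the file headers. The authors' table also holds a fold (ratio of means) and a p-value with its FDR from a Tukey test, per the file headers. Library kit, strand and annotation are not given in the sources used here, so reads of overlapping and antisense genes cannot be told apart. Counts per gene are not analysed here, so no counting interval is given. Coordinates are the authors', on hg19, and promoter sequences are from RefSeq.

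Values were taken as log2(FPKM + 1), a scale that understates the change of low genes. The 11006 genes of 300 bp or more that reached 1 FPKM in 2 of the 4 libraries entered 1 limma fit (version 3.58.1, R 4.3.3, eBayes with trend, no replicate block), with two-sided p-values adjusted by Benjamini-Hochberg and a threshold of 0.05. Tested on simulated data of this comparison over 11006 genes, it recovered 45 of 100 genes changed by a log2 of 1 and 83 of 100 changed by 2, with 6 false calls. The simulated libraries varied independently of each other. In the data, same-numbered libraries deviated together (correlation 0.729 across genes), so these rates may not hold for the real comparison. Genes and 38 gene lists were chosen with earlier results of these data known, and no list was tested. Named genes are the 15 with the smallest p in each direction whose groups are apart, up to 4 called or 2 uncalled members of each list, and EZH2, EZH1, EED, SUZ12, JARID2, BCL6, IRF4, MYC, CDKN1A, CDKN2A, CDKN2C and TXNIP. Other genes are named after their values were seen, and some named by this rule are not reported here. Alternatives changed the pseudocount (0.1, 0.5), the filter (none, 5 FPKM), the genes fitted (short ones added), the scaling (median ratios, quantiles), the variance model (eBayes with no trend, or robust), the design (a replicate block, each library left out) and the threshold (a log2 change of 1, or an adjusted p of 0.1, the last added after seeing the data).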

Additional observations from a re-analysis of the deposited data

How the results depend on the processing

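SH3BP5 and ECI2 were the genes called under pseudocounts of 0.1 and 0.5, a filter at 5 FPKM, quantile normalization, robust eBayes and a log2 threshold of 1, and were among the 3 called after median-ratio rescaling. Without a filter and with eBayes without trend, 0 genes were called, among all genes and among the 101 named. With short genes included the counts were 30 and, of those named, 7. At an adjusted p of 0.1, chosen after seeing the data, 510 genes passed, 385 higher and 125 lower with iEZH. Leaving out 1 library gave 200 to 467 genes, and 40 to 48 of those named. The cause was not tested.

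With the replicate block 3780 genes were called (2389 higher, 1391 lower with iEZH), and 90 of those named (53 higher, 37 lower). Same-numbered libraries deviated together (correlation 0.729 across genes), but the labels give the number no meaning and there are only 2 pairs, so this is a hint from the data and not the design.

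Of the 101 named genes, 7 turned direction somewhere, none of them called in the reported fit. Under quantile normalization RPLP0 was at -0.025, CD247 at -0.20, CD68 at -0.16 and EED at 0.013 on the log2 scale, and after median-ratio rescaling EZH1 was at -0.025 and MYC at -0.011. Leaving out a library gave ranges of -0.16 to 0.22 for CD247, -0.0077 to 0.18 for CD68, -0.36 to 0.058 for CDKN2A, -0.22 to 0.18 for EED, -0.11 to 0.14 for EZH1 and -0.080 to 0.14 for MYC. The medians of 18 of 38 lists kept their sign in the 12 settings compared, among them replication, mitosis, ATF4, tRNA synthetases, germinal centre, memory and naive B cells, fatty acid oxidation and lysosome, and 20 did not, among them p53 targets, NF-kB, JAK-STAT, interferon and ribosomal proteins. The replicate block leaves every log2 change as it was, and so does adding short genes for each long gene. These settings are among the 12 and do not check the sign. Precision at low FPKM is limited by the 2 libraries per group and the floor.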

Other observations

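Several of the largest differences lay outside the gene lists. The genes given here were chosen after their values were seen, apart from ACTA2 and STAG3, which the rule names. None passed the test. IGFBP4, a secreted protein that binds insulin-like growth factors, had 18.3 and 19.9 FPKM with iEZH and 3.46 and 5.87 FPKM with DMSO, and FXYD7, a modulator of the sodium pump in brain, had 8.04 and 13.2 FPKM with iEZH and 1.73 and 2.29 FPKM with DMSO. PLXNB2, a semaphorin receptor, had 14.4 and 11.3 FPKM with iEZH and 4.20 and 3.29 FPKM with DMSO. ABAT, the enzyme that breaks down the transmitter GABA, stood at 6.04 and 10.0 FPKM with iEZH and at 1.73 and 2.27 FPKM with DMSO, and CRYM, a thyroid hormone binding protein, at 4.88 and 7.67 FPKM with iEZH and 1.09 and 1.68 FPKM with DMSO. In each of these the groups were apart by a log2 change between 1.54 and 1.92. CLECL1, a lectin-like protein of B cells and dendritic cells, had 44.2 and 44.4 FPKM with iEZH and 16.6 and 12.4 FPKM with DMSO, and CEACAM1, an adhesion molecule with an inhibitory tail, had 24.7 and 37.2 FPKM with iEZH and 8.56 and 12.2 FPKM with DMSO. ACTA2, smooth muscle actin and the sole member of the epithelial and stromal list in the table, had 2.07 and 1.68 FPKM with iEZH and 0.0762 and 0.400 FPKM with DMSO, and so passed the filter only through the iEZH libraries.

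On the lower side, 3 of the genes with large differences are known mainly from the germ line. MNS1, a sperm flagellum protein, had 6.39 and 6.15 FPKM with iEZH and 21.1 and 40.1 FPKM with DMSO. ASZ1, which in mice represses transposons in male germ cells, had 10.3 and 14.7 FPKM with iEZH and 24.9 and 36.8 FPKM with DMSO, and STAG3, the meiotic cohesin subunit, had 11 and 9.86 FPKM with iEZH and 19.7 and 21.1 FPKM with DMSO. The groups were apart in all 3, with log2 changes of -2.05, -1.23 and -0.91, and no list of germ line genes was examined.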
